A study of Homo sapiens with 12 samples.

Results

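The mRNAs of the cytosolic translation elongation factors were followed through 12 RNA-seq libraries of 80S ribosome fractions and of RPL12 immunoprecipitates (IP) from the same fractions. The set was defined by 5 Ensembl gene identifiers out of 57820 in each count table: EEF1A1 (ENSG00000156508.13), EEF1B2 (ENSG00000114942.9), EEF1D (ENSG00000104529.13), EEF1G (ENSG00000254772.5) and EEF2 (ENSG00000167658.11). All 5 were listed in every table, and 4 had counts. EEF1G was listed at 0 in all 12 libraries.

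The cells were HEK293 Flp-In T-REx, an established human embryonic kidney line, stably expressing FLAG/HA-tagged RPL12 (uL11), a protein of the large ribosomal subunit. The tagged protein was wild type (WT), S38A, in which serine is replaced by alanine, or S38D, in which it is replaced by aspartate. Each line gave 2 pooled 80S fractions from sucrose gradients, to which cycloheximide was added. A part of each fraction gave the input library and the remainder was bound to anti-FLAG beads and gave the IP library, so there were 6 groups of 2 libraries. Per the labels the lines grew out of monoclonal colonies and overexpressed the tagged protein. The sources used here do not say how many clones made up a line, what became of the endogenous RPL12 or whether replicates were separate cultures. An IP from untagged cells is not among these libraries, so recovery through tagged RPL12 and RNA held by the beads without it cannot be told apart. With 1 line per form, form and line cannot be told apart either.

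During elongation, eEF1A (EEF1A1) brings each aminoacyl-tRNA to the ribosome as a GTP-bound complex. The eEF1B complex reloads it with GTP: EEF1B2 and EEF1D carry exchange activity and EEF1G holds the complex together. eEF2 (EEF2) is the GTPase that drives translocation of tRNA and mRNA. Both GTPases act at the ribosomal GTPase centre, whose stalk base contains RPL12. The libraries measure the mRNAs that encode these factors on ribosomes and not the factors themselves. Many mRNAs of translation factors, EEF1A1 and EEF2 among them, belong to the 5′ terminal oligopyrimidine (TOP) class, transcripts that start with a C followed by a run of C and T and whose translation is controlled together through mTOR.

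Annotated start sites of 4 members are shown because the TOP tract is the sequence feature for which this mRNA class is named, and no window is shown for EEF1D. Each window runs from 10 bases before to 20 bases from the start of transcription in RefSeq's table for GRCh38.p14, 5′ to 3′ on the gene's strand. The counts were made on another build, hg19. The longest run of C and T is in capitals. The windows are chr6:73521013-73521042 (minus strand) for EEF1A1, chr19:3985444-3985473 (minus) for EEF2, chr2:206159885-206159914 (plus) and chr2:206159599-206159628 (plus) for the downstream and upstream starts of EEF1B2, and chr11:62573872-62573901 (minus) for EEF1G.
EEF1A1: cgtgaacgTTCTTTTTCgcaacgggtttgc
EEF2: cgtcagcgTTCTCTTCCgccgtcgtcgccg
EEF1B2, downstream start: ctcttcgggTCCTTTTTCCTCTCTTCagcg
EEF1B2, upstream start: aagtggCCCCagcctcgaggccgggcgtct
EEF1G: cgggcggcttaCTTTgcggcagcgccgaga
The EEF1A1 and EEF2 runs are 9 bases long, start at position -2 and reach past the start, which is a C in both. Of 35116 RefSeq windows of this kind, 8.48% hold a run at least that long. The downstream EEF1B2 start lies in a run of 17 bases that begins at position -1, a length reached in 0.581% of windows. The upstream EEF1B2 start and the EEF1G start, which are annotated at an A, have runs of 4 bases, a length that 70.7% of windows reach. These letters describe the annotated starts, and the counts do not tell which start a read came from.

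Gene counts per library, without spike-in RNA, ran from 7434431 to 8723130 in the inputs and from 3186164 to 7430881 in the IP libraries. ERCC spike-in sequences took 0.116% to 0.484% of counts in inputs and 1.44% to 5.43% in IP. Levels below are CPM, a gene's counts relative to the library's total scaled by TMM, a method that takes most genes as unchanged between libraries. A lower CPM does not tell fewer cells carrying an mRNA from fewer copies per cell. CPM is not divided by transcript length, so levels are compared between libraries and not between genes. Raw counts ran from 12580 to 27358 for EEF2, from 11448 to 25186 for EEF1A1, from 1879 to 4077 for EEF1B2 and from 1024 to 2574 for EEF1D. The counting error of a single library was therefore at most 0.935% for the GTPases and at most 3.13% for EEF1D. Together the members made up 0.444% to 0.769% of gene counts in inputs and 0.644% to 1.11% in IP. The treatment of reads that map to several places is stated nowhere in the sources used here, beyond the word uniq in the names of the deposited tables. The RefSeq table names 50 EEF1A1 pseudogenes, 8 each for EEF1B2, EEF1D and EEF1G and 0 for EEF2. Reads shared with such copies could be split or lost, so the levels of the first 4 genes are uncertain.

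The second S38A fraction stood apart for these mRNAs. Its input had the lowest CPM of the 6 inputs for EEF1A1, EEF1B2 and EEF2, and its IP library the lowest of the 6 IP libraries for all 4 measured members. Its input held the most gene counts of all libraries, 8723130, and the cause of the low values was not tested.

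**Figure D1:**
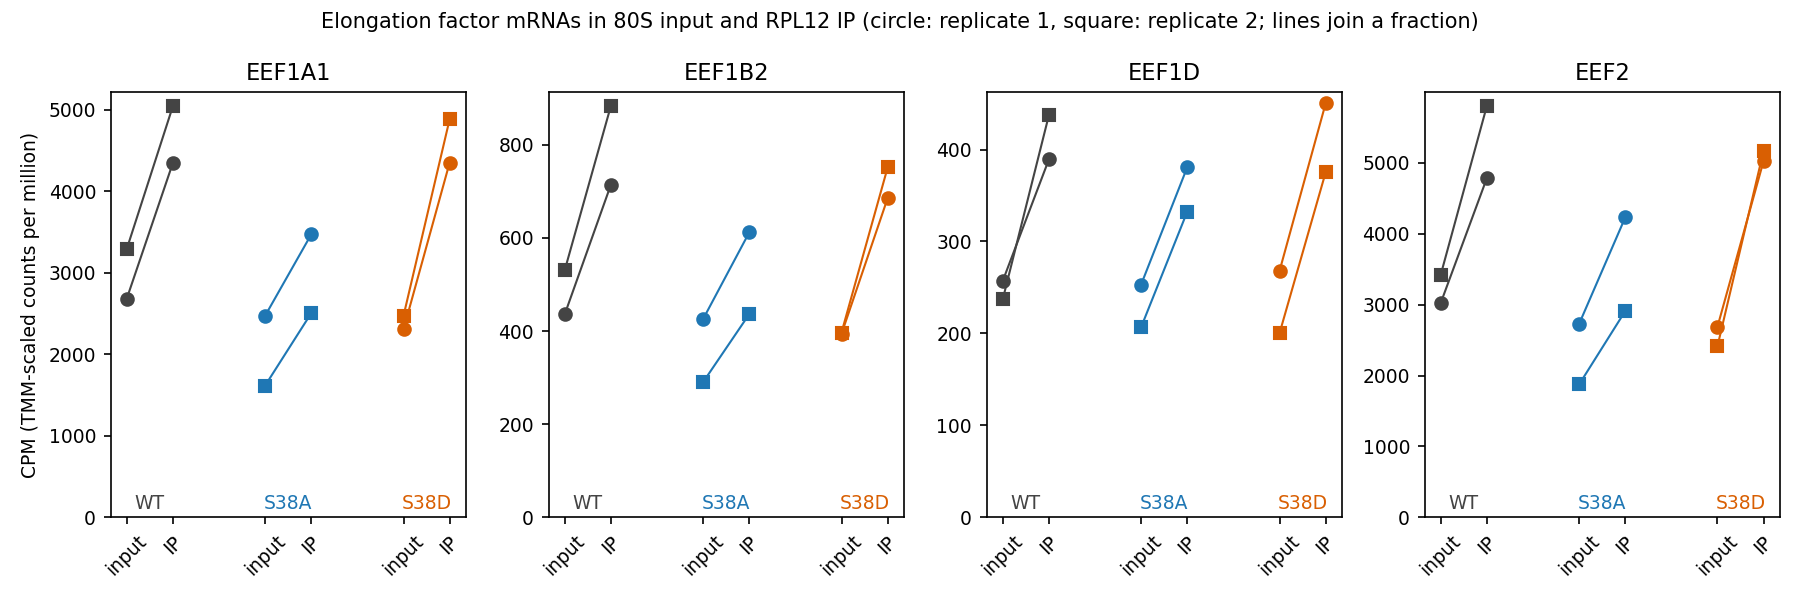
CPM (TMM-scaled, linear axes from 0) of EEF1A1, EEF1B2, EEF1D and EEF2 in each input and IP library, with a line joining the libraries of a fraction. Each of the 24 lines rises from input to IP, and the second S38A fraction (blue squares) is low in both libraries.

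EEF1A1, which delivers aminoacyl-tRNA, stood at 2686 and 3295 CPM in the WT inputs, 2475 and 1618 in the S38A inputs and 2308 and 2475 in the S38D inputs. The IP libraries held 4351 and 5048 (WT), 3474 and 2507 (S38A), and 4354 and 4887 (S38D). Every IP library lay above both inputs of its own line, although the second S38A IP library lay below the WT inputs. Over the 3 lines EEF1A1 rose by 0.72 on the log2 scale in IP (1.64-fold, SE 0.14, edgeR quasi-likelihood test, adjusted p = 0.0027).

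EEF2, the translocase, was at 3022 and 3421 CPM in WT inputs, 2727 and 1874 in S38A inputs and 2687 and 2414 in S38D inputs. Its IP values were 4781 and 5799 (WT), 4227 and 2908 (S38A), and 5025 and 5168 (S38D). The pattern was that of EEF1A1, with the highest values in the second WT fraction and the lowest in the second S38A fraction. EEF2 rose by 0.78 in IP (1.72-fold, SE 0.14, edgeR adjusted p = 0.0016).

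EEF1B2, a subunit with exchange activity, was at 436 and 531 CPM in WT inputs, 426 and 291 in S38A inputs and 394 and 397 in S38D inputs. Its IP values were 714 and 883 (WT), 612 and 436 (S38A), and 685 and 751 (S38D). The libraries ordered much as for the GTPases, and the 6 IP values overlapped the 6 input values only through the second S38A IP library. EEF1B2 rose by 0.71 in IP (1.64-fold, SE 0.13, edgeR adjusted p = 0.0016).

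EEF1D, the other subunit with exchange activity, was at 257 and 237 CPM in WT inputs, 253 and 207 in S38A inputs and 268 and 200.2 in S38D inputs. Its IP values were 389 and 437 (WT), 381 and 332 (S38A), and 450.0 and 375 (S38D). It was the single member whose 6 IP values all lay above its 6 input values, a separation found in 6.15% of all genes tested (6.86% had all IP values below all inputs). EEF1D rose by 0.73 in IP (1.66-fold, SE 0.11, edgeR adjusted p = 0.00054).

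In IP versus input over the 3 lines 4 of 4 tested members were thus called higher, where 31.8% of the 16920 genes were called, 15.9% higher and 15.9% lower. The members' median log2 change was 0.72, against -0.04 for all genes. Genes with many counts were shifted upward as a class, which says nothing of levels per length: in the highest quartile of genes by CPM, to which all 4 belong, the median was 0.17 and 37.3% were called higher. The members' fitted changes lay at percentiles 94.1 to 95.4 of all genes. Within each line both IP values of each member lay above both inputs, which held in all 3 lines for 11.9% of genes, and IP exceeded input in 6 of 6 fractions, which held for 20.3%.

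EEF1G, the scaffold of the exchange complex, could not be followed. It had 0 counts in each library, as did 42.0% of all identifiers, where 3 counts would correspond to 0.344 to 0.942 CPM. As a gene that growing cells use broadly, it is described here only as listed at 0, and the way reads were assigned to it was not tested.

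Between TMM and total counts the changes differed in size and not in sign. Spike-in scaling was not applied to IP versus input. ERCC sequences took 0.116% to 0.484% of counts in inputs and 1.44% to 5.43% in IP. The size and sign of the changes on a spike-in scale were not tested. When libraries were scaled by total counts, the all-gene median went from -0.04 to -0.25, and 1298 of 6549 called genes were higher in IP, against 2690 of 5378 with TMM. EEF1A1 then changed by 0.50, EEF1B2 by 0.50, EEF1D by 0.52 and EEF2 by 0.57, and all 4 still passed (edgeR adjusted p = 0.0029 to 0.0087). Measured from the median of all genes, the change of EEF1A1 was 0.76 with TMM and 0.75 with total counts, and that of EEF2 was 0.82 with either. With 1 library left out at a time all 4 members passed in each of 12 fits. EEF1A1 ranged from 0.61 to 0.83 and EEF1D from 0.66 to 0.80, with adjusted p up to 0.012. Without the second S38A fraction, in a fit with fractions as a replicate block, the changes were 0.70 to 0.78 (edgeR adjusted p up to 0.0014).

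Each line was then taken alone, with the estimate of spread shared over all 12 libraries. In S38D all 4 members were called higher, where 4.87% of genes were called, 3.13% higher and 1.74% lower: EEF2 by 1.00 (SE 0.25), EEF1A1 by 0.95 (SE 0.25), EEF1B2 by 0.86 (SE 0.23) and EEF1D by 0.82 (SE 0.19). Their edgeR adjusted p-values, 0.033 to 0.0497, lay close to the threshold of 0.05. None of the 4 passed without the first or second S38D IP library, without either S38D input or without either WT input, and EEF1B2 also failed without the first S38A IP library (adjusted p = 0.051). With total counts none passed (0.056 to 0.086), and 242 of 1622 called genes were higher, against 530 of 824 with TMM.

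In WT, EEF1D was called higher (0.74, SE 0.19, edgeR adjusted p = 0.028), where 11.2% of genes were called, 5.77% higher and 5.48% lower. EEF1B2 changed by 0.72 (SE 0.23, adjusted p = 0.057), EEF2 by 0.72 (SE 0.25, 0.081) and EEF1A1 by 0.65 (SE 0.25, 0.11). The 4 estimates lay within 1 SE of each other, and EEF1D had the smallest SE. The EEF1D call was lost without either WT input (adjusted p = 0.104 and 0.196) and without either WT IP library (0.070 and 0.059). Without the first or the second S38A input EEF1B2 passed as well (0.044 in each). With total counts no member passed, and 484 of 2928 called genes were higher, against 976 of 1903 with TMM.

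In S38A, 0 of 4 members and 0% of all genes passed in edgeR. The 4 members had unadjusted p under 0.05 in edgeR. DESeq2 called 1 of them (EEF1D, adjusted p = 0.037), where it called 463 of all genes, and voom called 0 members and 0 genes. Their changes were 0.55 for EEF1A1 (SE 0.25), 0.55 for EEF1B2 (SE 0.22), 0.63 for EEF1D (SE 0.19) and 0.63 for EEF2 (SE 0.25), with adjusted p = 0.17 to 0.32. For EEF1A1 the S38A change ranged from 0.26 without the first S38A IP library to 0.89 without the first S38A input.

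These fits compare groups and ignore that an IP library came from the same fraction as its input. When the fraction entered as a replicate block, the estimates hardly moved and the calls did. All 4 members passed in WT (edgeR adjusted p = 0.00094 to 0.0016) and in S38A (0.0071 to 0.0098). Calls rose over all genes tested as well, to 4818 in WT (1903 without the block) and to 2079 in S38A (0 without the block). The S38A replicates differed more from each other in level than in IP over input, most clearly for EEF2. For EEF2 the S38A inputs were 37.1% of their mean apart and the S38A IP libraries 37.0%, while log2 IP over input was 0.63 in both fractions. For EEF1D the gap was smaller, 20.2% in the S38A inputs and 13.5% in the S38A IP libraries, with log2 IP over input of 0.59 and 0.68. With the block but without the second S38A fraction, S38A rested on 1 fraction and none of the 4 passed there (edgeR adjusted p = 0.40 to 0.44), with changes of 0.49 to 0.63.

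**Figure D2:**
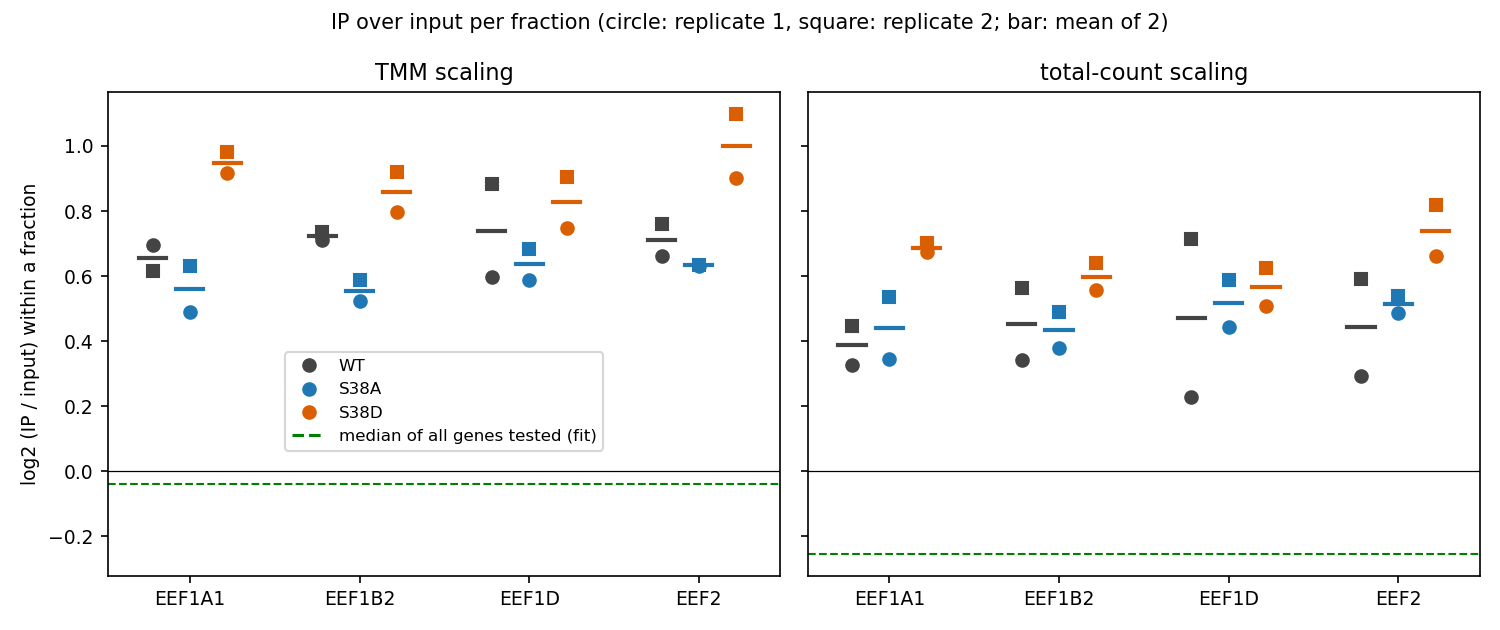
Log2 ratio of IP to input CPM within each of the 6 fractions for the 4 measured members, with TMM scaling (left) and total-count scaling (right). Bars are means of 2 fractions and the dashed line is the median of all genes tested. All points lie above 0. With TMM scaling the S38D points are the highest for EEF1A1, EEF1B2 and EEF2, an order that was not counted over all genes.

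Within fractions, log2 IP over input of EEF1A1 was 0.70 and 0.62 in the WT fractions, 0.49 and 0.63 in those of S38A, and 0.92 and 0.98 in those of S38D. For EEF2 the WT fractions gave 0.66 and 0.76, both S38A fractions 0.63, and the S38D fractions 0.90 and 1.10. For EEF1B2 the WT fractions gave 0.71 and 0.73, the S38A fractions 0.52 and 0.59, and the S38D fractions 0.80 and 0.92. In these 3 genes both S38D fractions lay above the 4 others with TMM scaling. How many of all genes show this order was not counted. The log2 CPM of the 3 genes moved together over the 12 libraries (correlations of 0.985 to 0.992), so they are not 3 separate observations. EEF1D gave 0.60 and 0.88 for WT, 0.59 and 0.68 for S38A, and 0.75 and 0.91 for S38D, so that its second WT fraction lay between the S38D fractions. With total counts the S38D fractions of EEF1B2 also overlapped WT (0.56 and 0.64 against 0.34 and 0.56).

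Whether IP over input differed between lines was tested by interaction contrasts, in which 0% of all genes passed. S38D exceeded WT by 0.30 for EEF1A1 (SE 0.35), 0.28 for EEF2 (SE 0.35), 0.14 for EEF1B2 (SE 0.32) and 0.08 for EEF1D (SE 0.27). S38D exceeded S38A by 0.40 (SE 0.35), 0.37 (SE 0.35), 0.31 (SE 0.32) and 0.19 (SE 0.27) for the same genes, and these comparisons share the S38D libraries. S38A minus WT was -0.11 for EEF1A1 (SE 0.35), -0.08 for EEF2 (SE 0.35), -0.18 for EEF1B2 (SE 0.32) and -0.11 for EEF1D (SE 0.27). With total counts it turned to 0.03, 0.05 and 0.03 for EEF1A1, EEF2 and EEF1D and was -0.04 for EEF1B2. In each of the 3 contrasts 0 of 4 members passed (edgeR adjusted p = 1.00), 0 had an unadjusted p under 0.05, and DESeq2 and voom called 0. With the fraction as a replicate block the lowest adjusted p was 0.74, and S38D minus WT was 0.29 for EEF1A1 (adjusted p = 0.99). These differences moved when single libraries were omitted. S38A minus WT ranged from -0.39 (without the first S38A IP library) to 0.24 (without the first S38A input) for EEF1A1, and from -0.41 to 0.22 for EEF2 without the same libraries. S38D minus S38A for EEF1A1 ranged from 0.06 without the first S38A input to 0.68 without the second. S38D minus WT for EEF1A1 ranged from 0.14 without the second WT input to 0.44 without the first, and the signs for EEF1B2 and EEF1D turned in some omissions (EEF1B2 -0.05 without the first WT IP library, EEF1D -0.12 without the second S38D input). With the block and without the second S38A fraction, S38A minus WT was -0.16 for EEF1A1 and -0.08 for EEF2, and S38D minus S38A was 0.46 and 0.37.

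**Figure D3:**
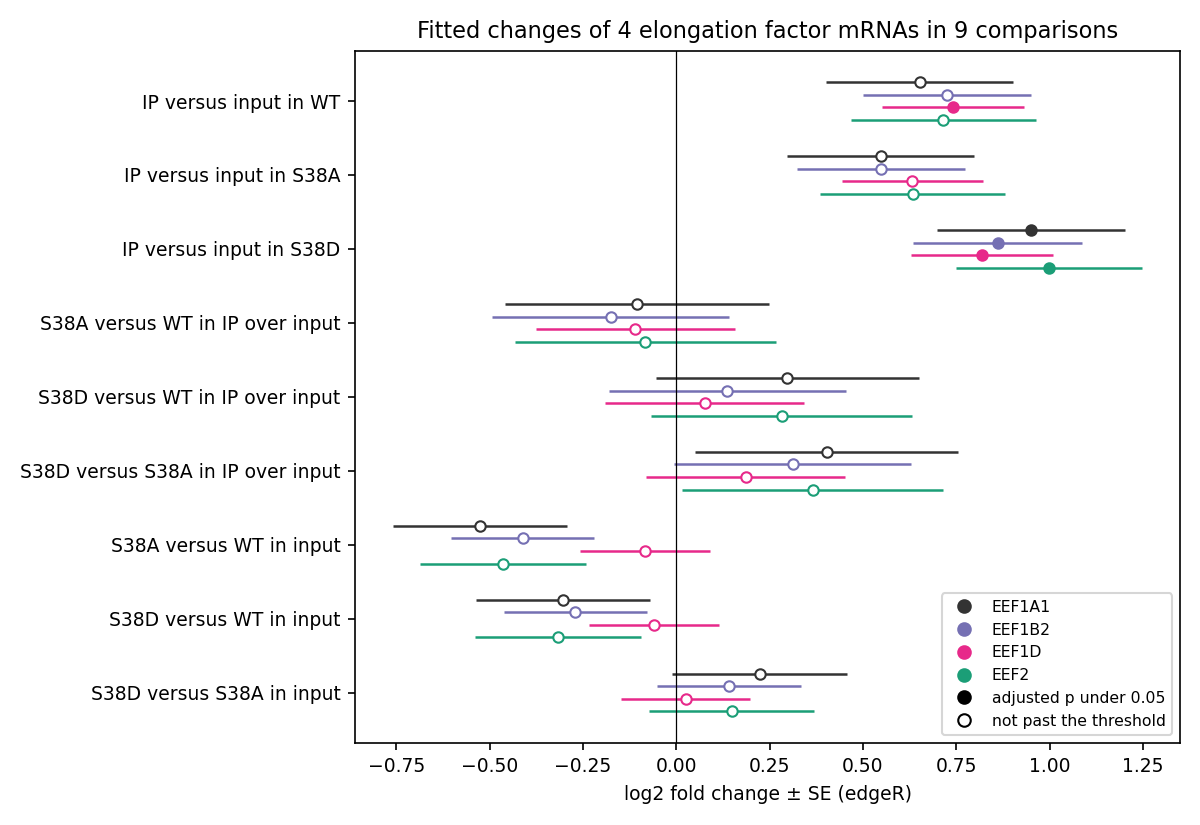
Fitted log2 fold changes with standard errors (edgeR, no block) of 4 members in 9 comparisons: IP versus input in each line, differences between lines in IP over input, and differences between lines in input. Filled points passed an adjusted p of 0.05. All filled points belong to IP versus input in WT and S38D, and those between lines are open.

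The inputs were compared to ask whether these mRNAs differed on 80S ribosomes before the IP. Relative to WT, S38A inputs stood at -0.53 for EEF1A1 (SE 0.23), -0.46 for EEF2 (SE 0.22), -0.41 for EEF1B2 (SE 0.19) and -0.08 for EEF1D (SE 0.17). In this comparison 0 of 4 members and 0% of 16728 genes passed (edgeR adjusted p = 0.33 to 0.86), 1 member had an unadjusted p under 0.05, and DESeq2 and voom called 0 members. The second S38A library decided the size of the difference. Without it the values were -0.25, -0.22, -0.16 and 0.06 in the same order, and without the first they were -0.87, -0.76, -0.72 and -0.24. Either omission leaves 1 S38A input, so only the sizes are given.

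In S38D inputs relative to WT the differences were -0.30 for EEF1A1 (SE 0.23), -0.32 for EEF2 (SE 0.22), -0.27 for EEF1B2 (SE 0.19) and -0.06 for EEF1D (SE 0.17). For EEF1A1 the S38D difference from WT ranged from -0.43 without the first WT input to -0.16 without the second, and for EEF1D it turned to 0.14 without the second S38D input. S38D minus S38A was 0.22, 0.15, 0.14 and 0.02. Without the second S38A input these 4 values turned to -0.05, -0.10, -0.11 and -0.12, and without the first they were 0.56, 0.45, 0.45 and 0.18. For EEF1D the sign of S38D minus S38A also turned without the first S38D input (-0.21). No member passed in either comparison (edgeR, 0 of 4; 0 at unadjusted p under 0.05; 0 with DESeq2 and voom), and 0.00598% of genes, a single identifier, passed in each. With the sum of spike-in counts as the scale, all genes shifted, with medians of -0.44, -0.83 and -0.40 for S38A and S38D against WT and S38D against S38A. The WT inputs that serve as reference held 0.116% and 0.484% of spike-in counts, a wider gap than in S38A (0.342% and 0.211%) or S38D (0.350% and 0.330%). EEF1A1 then stood at -0.95 and -1.05 relative to WT in S38A and S38D, and at -0.11 in S38D relative to S38A, where its sign turned, and no member passed (edgeR adjusted p = 0.71 to 1.00). Measured from those medians the values for EEF1A1 were -0.51, -0.22 and 0.30.

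Ratios of 2 members' counts within a library do not depend on any scaling between libraries. The ratio of EEF1B2 to EEF2 counts was 0.144 to 0.164 in inputs and 0.136 to 0.152 in IP. That of EEF1A1 to EEF2 was 0.859 to 1.03 in inputs and 0.822 to 0.946 in IP. The ranges of input and IP overlapped for both ratios. EEF1D varied more: its ratio to EEF2 was 0.0851 and 0.0693 in WT inputs, 0.0929 and 0.110 in S38A inputs and 0.0997 and 0.0829 in S38D inputs. The IP ratios were 0.0814 and 0.0754 (WT), 0.0901 and 0.114 (S38A), and 0.0896 and 0.0726 (S38D). The second S38A fraction was the highest in input and in IP, where EEF1D lay less far below the first S38A fraction than the other 3. Over the 6 inputs the SD of the log2 ratio to EEF2 was 0.23 for EEF1D, 0.10 for EEF1A1 and 0.07 for EEF1B2.

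Between IP and input, the mean change of each of the 6 ratios was smaller than its SD over fractions. The log2 ratio of EEF1B2 to EEF2 differed by -0.07 ± 0.08 (SD, n = 6 fractions), lower in IP in 5 of 6 (two-sided exact permutation within fractions, p = 0.125, adjusted over 6 pairs 0.656). EEF1A1 to EEF2 differed by -0.06 ± 0.08 (4 of 6 lower, exact p = 0.219, adjusted 0.656) and EEF1D to EEF2 by -0.05 ± 0.12 (4 of 6 lower, exact p = 0.375, adjusted 0.75). The ratios among EEF1A1, EEF1B2 and EEF1D differed by -0.02 to 0.01 on average, each higher in IP in 3 fractions and lower in 3. The smallest p that the 64 sign patterns of 6 fractions allow is 0.031, which is 0.19 after adjustment for a lone ratio, and 4 ratios would have to reach it together to pass.

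**Figure D4:**
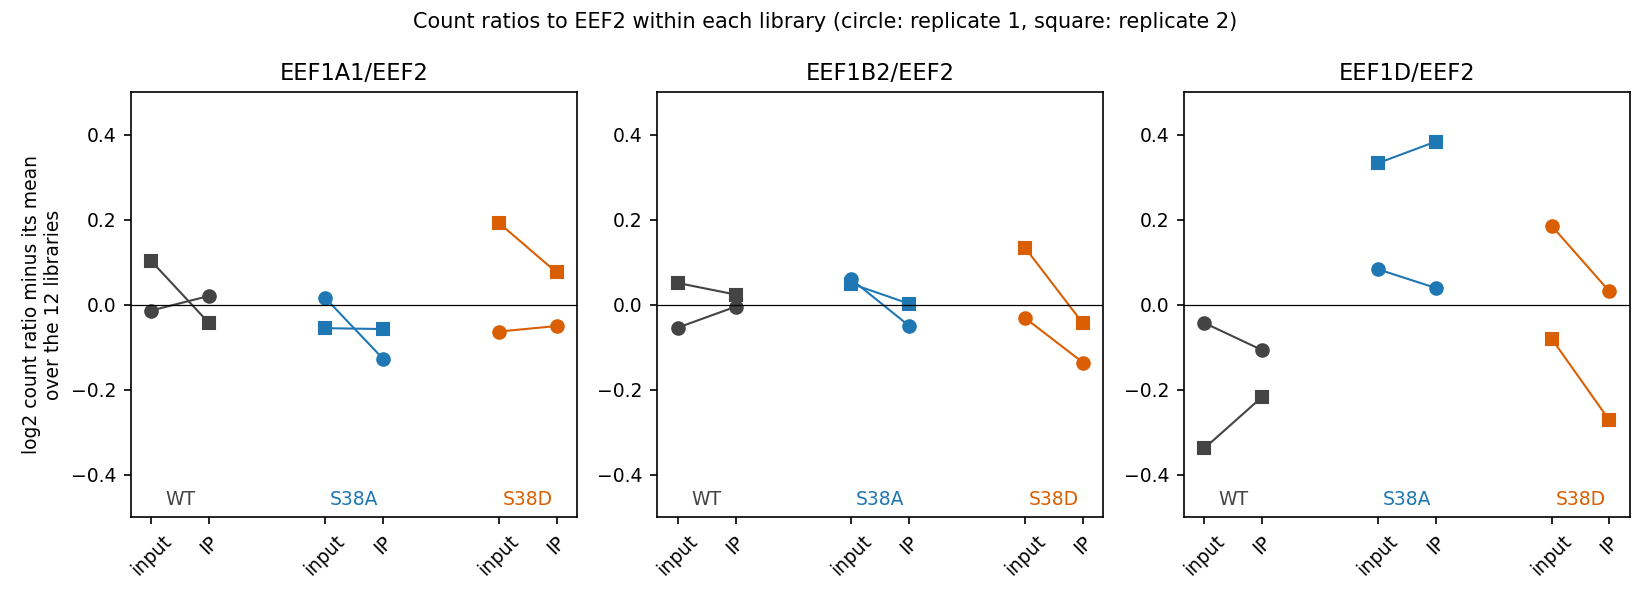
Log2 ratio of EEF1A1, EEF1B2 and EEF1D counts to EEF2 counts in each library, minus the mean of the 12 libraries, with lines joining the libraries of a fraction. EEF1D spreads more widely than the other 2 (input SD 0.23 against 0.10 and 0.07). From input to IP, 5 of 6 lines fall for EEF1B2 and 4 of 6 for EEF1A1 and for EEF1D. In no panel do all lines share a direction.

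The likeness of profiles was measured as the root mean square difference of log2 CPM over the 12 libraries after centring each gene on its mean. All genes share these libraries, their depth and their scaling, so likeness is a description. Among 13103 other genes, the nearest to EEF1B2 was EEF2 (difference 0.067) and EEF1A1 ranked 3 (0.070). For EEF2, EEF1B2 ranked 2 and EEF1A1 ranked 7 (0.084). For EEF1A1, EEF1B2 ranked 15 and EEF2 ranked 28. EEF1D was farther away, at rank 280 from EEF2 (0.22), 473 from EEF1B2 (0.23) and 687 from EEF1A1 (0.27). The nearest gene outside the set was ENSG00000071082.6 for EEF1A1 (0.038) and ENSG00000173812.6 for EEF2 (0.064), identifiers that the files do not pair with names.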

How the data were processed

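The authors deposited raw counts per Ensembl gene and per ERCC sequence (92), 1 table per library. The submitters' processing notes name build hg19, STAR 2.4.2a, bcl2fastq 2.16.0.10 and DESeq2. The sources used here do not name the read counter, its strand setting or the annotation release. ERCC rows were left out of library sizes and tests.

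The quasi-likelihood test of edgeR 4.0.16 (R 4.3.3; glmQLFit and glmQLFTest, TMM, filterByExpr at a minimum count of 10) was used for 10 comparisons. Benjamini-Hochberg adjustment ran over all genes tested, and an adjusted p under 0.05 was a call. Comparisons involving IP used 12 libraries (16920 genes), those among inputs 6 (16728 genes). The SE is the log2 fold change divided by the root of the quasi-likelihood F. Replicates that are not separate cultures would give p-values of technical spread only. Alternatives were RLE, total counts, 2 filters, DESeq2 1.42.0, voom in limma 3.58.1, a replicate block, spike-in scaling (inputs only) and omission of libraries. The fits were tested on simulated counts.

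Per the labels' protocols, the input and IP with 1 number come from a shared fraction. Their deviations from group means correlated across genes at 0.28 (WT), 0.64 (S38A) and 0.54 (S38D). With 2 libraries per group the deviations of the replicates mirror each other, so each line gives 1 correlation. The pairing therefore rests on the labels, and these values do not establish it. Replicates differed by more than sampling noise (chi-square per degree of freedom 5.08 to 14.9).

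The members and lists were chosen with earlier results of these data known. The members were named from the definition of the set. By rule, all members were described, with the nearest gene to EEF1A1 and to EEF2. Lists of further translation genes and of cell type markers were fixed by symbol. They are not analysed here, since 0 of 59792 genes in the reference table carried an Ensembl identifier. The HEK293 identity was therefore not checked against markers.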

Additional observations from a re-analysis of the deposited data

How the results depend on the processing

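Over the 3 lines together, 4 of 4 members passed as higher in IP under every alternative run, with 80 of 80 values positive. None of these alternatives scaled IP libraries by spike-in. With all libraries kept, 4984 (filter at mean CPM 10) to 7860 (replicate block) of all genes were called there, in either direction. In WT, 1 called member became 0 with total counts (2928 of all genes called), voom (597) or only the 4 WT libraries (0). It became 2 under the filter at mean CPM 10 (2149). With no filter (2551), DESeq2 (2627) or the fraction as a replicate block (4818) it became 4. That block without the second S38A fraction and the omission of single libraries also moved WT calls, in fits with 1 fraction or library left in a group. For S38A the count of 0 became 1 with no filter (399 of all genes called), 1 with DESeq2 (463 of all genes) and 4 with the replicate block (2079 of all genes). In S38D, 4 became 0 with total counts (0 to 4 when single libraries were omitted). For S38A versus WT in input, 0 became 1 with no filter (EEF1A1). Omission of single S38A inputs moved the sizes of the differences. Calls from those fits, with 1 S38A input left, are not given. The replicate block changed no other member call, and it could be fitted for inputs only with the replicate number, which the labels do not say pairs lines. The block without the second S38A fraction was chosen after seeing the data. Counts over all genes moved from 1903 to between 0 and 4818 in WT, from 0 to between 0 and 2079 in S38A and from 824 to between 0 and 3379 in S38D. With no filter they moved from 0 to 39 for the S38A-WT difference of IP over input (0 to 293 when single libraries were omitted) and from 0 to 924 for S38A versus WT in input (419 with DESeq2). For S38D inputs versus WT 1 became 87 with no filter and 10 with DESeq2, and versus S38A 49 and 2. The cause was not tested. For pair ratios 0 of 6 passed in each alternative. Where signs were permuted within fractions this says little, since a lone ratio could not pass even with all 6 fractions. The alternative that permuted the 12 libraries without regard to fractions does not have that limit. Counting error was at most 3.13% for these genes.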
